A study of Bos taurus with 86 samples.

Results

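The genes described here encode the proteins of the mitochondrial ribosome, taken as every gene whose symbol in the platform annotation begins with MRPL or MRPS. There were 39 such genes among 4452 named genes, and 36 of them could be tested, 24 MRPL and 12 MRPS. They occupy 88 of the 16416 rows of the table. In single bovine embryos, 17 of the 36 genes had lower ratios in IVF than in AI embryos, against 17.7% of all features. A feature is a named gene or an unnamed row. In IVD embryos 17 genes were lower than in AI embryos, against 21% of all features. Higher ratios were found at 1 gene in IVF and 2 in IVD embryos, against 19.9% and 25.5% of all features. The largest decreases were those of MRPL51, MRPL24 and MRPL27 in IVF embryos, and of MRPS12 and MRPL43 in IVD embryos. Only MRPL45 was higher than in AI embryos in both of these comparisons.

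Mitochondria make a small set of proteins of their own, all of them membrane subunits of the respiratory chain and the ATP synthase. The ribosome that does this has a large subunit, where peptide bonds form and the new chain leaves through an exit tunnel, and a small subunit, where the messenger is decoded. Its RNA comes from the mitochondrial genome, but its proteins are encoded in the nucleus, made in the cytosol and imported. Some of them descend from proteins of bacterial ribosomes, and others have no bacterial relative. In cattle, as in other mammals, mitochondria of the oocyte supply the early embryo.

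The study compared 15 IVF, 14 IVD and 14 AI embryos of Bos taurus, each measured singly against a common reference RNA. By its title it asked about maturation, fertilization and culture in vitro. IVF was read as in vitro fertilization and AI as artificial insemination, while IVD is not spelled out in the labels and serves as a group name only. The sources used here give no breed, developmental stage, sire or embryo sex, so these could differ between groups. Embryo RNA was amplified in 3 rounds and reference RNA in 2 rounds in all 3 groups. IVD embryos 12_1, 12_2, 12_3 and 12_4 are numbered as a set and may not be independent. Each value is the mean of 2 dye-swapped arrays per embryo, given as a log2 ratio, so that a difference of 1 is a 2-fold change. Each embryo gave RNA of all its cells together, and fewer cells of a type and less RNA per cell cannot be told apart.

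Each ratio was read as embryo over reference. This direction is likely but not stated. It rests on the trophectoderm, the outer layer of the blastocyst, whose markers had medians of 2.21 in IVF, 2.56 in IVD and 2.98 in AI embryos over 8 measured genes of 11. Of these 8, 7 had a mean above 0 in IVF, 7 in IVD and 8 in AI embryos. Were it the other way round, every sign given here would be reversed. The same 8 markers also differed between groups, with 4 lower and 0 higher in IVF than in AI embryos, and 4 lower and 2 higher in IVD than in AI embryos. The embryo medians of this list ran from 1.55 to 2.78 in IVF, from 2.07 to 3.44 in IVD and from 2.28 to 3.27 in AI embryos, and CDX2, IFNT and ELF5 were not among the measured genes. Of other cell types, 1 inner cell mass marker (SPP1) and 1 cumulus cell marker (CYP19A1) were measured, and none of blood, oviduct or oocyte. SPP1 averaged -2.59 ± 0.60 in IVF, -3.57 ± 0.59 in IVD and -2.75 ± 0.57 in AI embryos (SD, n = 15, 14 and 14), below 0 unlike most of the trophectoderm markers. It was lower in IVD than in AI embryos by a difference of -0.83 and higher in IVF than in IVD embryos by 0.99 (limma adjusted p = 0.00157 and 0.000146). CYP19A1 averaged -0.143 ± 0.184 in IVF, -0.357 ± 0.262 in IVD and -0.422 ± 0.165 in AI embryos (SD), and was higher in IVF than in AI embryos by 0.28 and than in IVD embryos by 0.21 (limma adjusted p = 0.00881 and 0.0346). The part of these markers in the results was not tested.

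The groups also differed in how much was measured. Embryo means of rows without a value ran from 3076.5 to 5099.5 in IVF, from 1001.5 to 1871.5 in IVD and from 3613 to 5713 in AI embryos. Of the 88 rows of these genes, 72 to 83 had a value in IVF embryos, 84 to 88 in IVD embryos and 70 to 80 in AI embryos. The correlation of an embryo's 2 unturned arrays ran from -0.911 to -0.717 in IVF, from -0.767 to -0.589 in IVD and from -0.912 to -0.816 in AI embryos. Slide, day and batch are not in the labels. As a stand-in for a batch, embryos were grouped into 3 clusters by their dye bias, the part of the ratio that keeps its sign when the dyes are exchanged, and the cluster was added to the fit as a block. The clusters largely followed the groups, since 11 of 15 IVF embryos formed 1 of them with 1 AI embryo, and 13 of 14 AI embryos another with all 14 IVD and 2 IVF embryos.

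The level relative to the reference spanned a wide range among the genes. MRPS22, of the small subunit, had the highest mean in each group, 1.39 ± 0.41 in IVF, 1.68 ± 0.38 in IVD and 1.67 ± 0.35 in AI embryos (SD, n = 15, 14 and 14). MRPL28, a relative of bacterial L28, had the lowest, -1.77 ± 0.31 in IVF, -1.73 ± 0.42 in IVD and -1.59 ± 0.20 in AI embryos (SD, n = 14 each). The MRPL28 value rests on 1 of 2 clones, since the other had too few embryos to be tested. The 2 rows of that other clone had medians of 1.08 and 0.65 in 3 AI embryos, unlike the tested clone. Their medians were -0.76 and -0.64 in 12 IVD embryos, none of which reached the AI range, and -0.78 and -0.69 in 2 and 1 IVF embryos. These are ratios to the reference, not amounts, so they do not rank the transcripts by abundance. Means were above 0 for 18 of 36 genes in IVF, 20 in IVD and 28 in AI embryos.

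**Figure D1:**
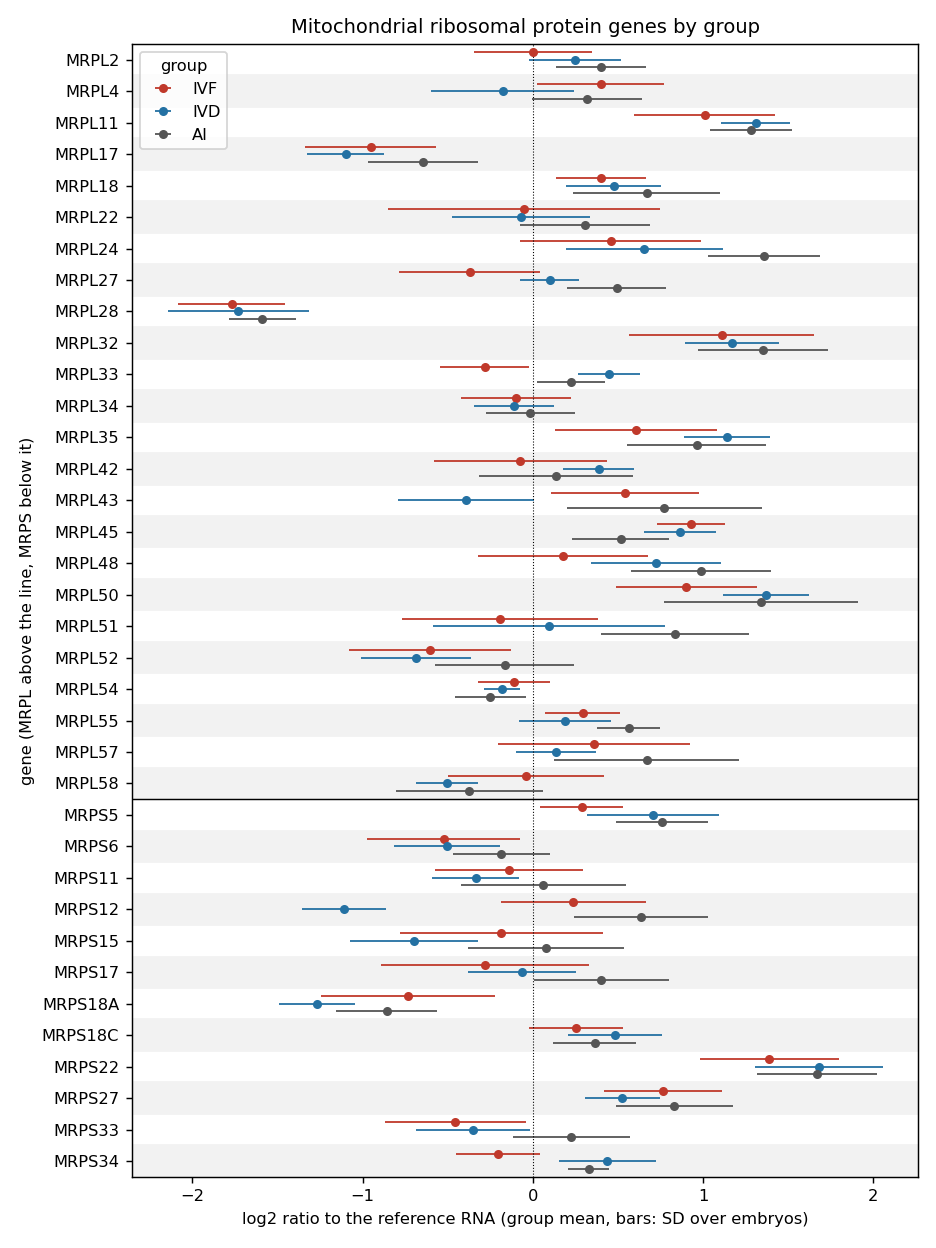
Group means of the 36 tested genes as log2 ratios to the reference RNA (x axis) by gene (y axis), with IVF in red, IVD in blue, AI in grey and bars for the SD over embryos. MRPS22 sits at the right and MRPL28 at the left in every group, and MRPS12 and MRPL43 stand out as low in IVD.

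The median over the measured genes of an embryo gives 1 value per embryo. It ran from -0.06 to 0.30 in IVF embryos, with a mean of 0.105 ± 0.114 (SD, n = 15). In IVD embryos it ran from -0.02 to 0.31 around 0.128 ± 0.115 (SD, n = 14), and in AI embryos from 0.26 to 0.57 around 0.408 ± 0.0998 (SD, n = 14). Of the IVF embryos 14 of 15, and of the IVD embryos 11 of 14, lay below the lowest AI embryo, and the IVF and IVD embryos overlapped over most of their range. These medians are a description and carry no test.

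IVF embryos were compared with AI embryos with limma over all 6278 features, where a feature is a named gene or an unnamed row, and a difference passed when its Benjamini-Hochberg adjusted p was below 0.05. IVF embryos had lower ratios at 17 of 36 mitochondrial ribosomal genes, against 17.7% of all features, and a higher ratio at 1, against 19.9% of all features. The remaining 18 genes did not pass. The median difference was -0.29 over the 36 genes and 0.04 over all features, and 31 of 36 genes lay below 0. Among 24 MRPL genes 11 were lower and 1 was higher, with a median of -0.29. Among 12 MRPS genes 6 were lower and 0 higher, with a median of -0.31.

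MRPL51, a large subunit protein without a bacterial relative, had the largest difference of the 36 genes between IVF and AI embryos. It ran from -1.25 to 0.69 with a median of -0.30 in IVF embryos, from -1.43 to 0.73 with a median of 0.33 in IVD embryos, and from 0.32 to 1.53 with a median of 0.74 in AI embryos. Of 15 IVF embryos 11 lay below every AI embryo, and 4 fell within the AI range. The difference between IVF and AI was -1.03 ± 0.21 (SE, limma adjusted p = 0.000136), 2.04-fold lower in IVF. Its 2 clones gave -1.23 and -0.78 in this comparison.

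MRPL24 is a relative of bacterial L24, which in Escherichia coli binds early in the assembly of the large subunit. It ran from -0.66 to 1.42 with a median of 0.58 in IVF, from -0.27 to 1.54 with a median of 0.73 in IVD, and from 0.77 to 1.99 with a median of 1.30 in AI embryos. Again 11 of 15 IVF embryos lay below the AI range, and so did 7 of 14 IVD embryos. IVF differed from AI by -0.90 ± 0.16 (SE, limma adjusted p = 3.53e-05).

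MRPL27 is a relative of bacterial L27, a protein near the site where peptide bonds form in bacteria. It ran from -1.25 to 0.20 with a median of -0.31 in IVF, from -0.12 to 0.46 with a median of 0.03 in IVD, and from -0.21 to 0.86 with a median of 0.55 in AI embryos. Of the IVF embryos 10 of 15 lay below every AI embryo, and of the IVD embryos 0 of 14. The difference was -0.86 ± 0.12 between IVF and AI (SE, limma adjusted p = 3.12e-07).

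MRPL48, a large subunit protein without a bacterial relative, ran from -0.87 to 1.04 with a median of 0.07 in IVF, from -0.005 to 1.40 with a median of 0.89 in IVD, and from 0.45 to 1.73 with a median of 0.96 in AI embryos. IVF embryos were the low group, with 11 of 15 below every AI embryo, against 5 of 14 IVD embryos. IVF differed from AI by -0.81 ± 0.16 (SE, limma adjusted p = 0.000103), and the adjusted p was 0.65 with the dye-bias cluster as a block.

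In the small subunit, MRPS17, a relative of the bacterial rRNA-binding protein S17, ran from -1.46 to 0.63 with a median of -0.22 in IVF, from -0.70 to 0.46 with a median of -0.08 in IVD, and from -0.29 to 0.97 with a median of 0.44 in AI embryos. Its ranges overlapped, with 6 of 15 IVF embryos below the AI range. The difference of IVF from AI was -0.68 ± 0.17 (SE, limma adjusted p = 0.00141), and only -0.04 with the dye-bias cluster as a block. MRPS33, found in mitochondrial ribosomes alone, ran from -1.08 to 0.52 with a median of -0.45 in 14 IVF embryos, from -0.90 to 0.21 with a median of -0.42 in IVD embryos, and from -0.35 to 0.99 with a median of 0.26 in 13 AI embryos. Here 11 of 14 IVF embryos and 7 of 14 IVD embryos were below the AI range, and the difference of IVF from AI was -0.68 ± 0.14 (SE, limma adjusted p = 0.00022, and 0.11 with the dye-bias cluster as a block).

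MRPS34, which in mice is needed for a stable small subunit, was the gene whose IVF and AI embryos did not overlap, 1 of 36 genes against 0.542% of all features. It ran from -0.82 to 0.04 with a median of -0.11 in IVF, from 0.05 to 0.91 with a median of 0.45 in IVD, and from 0.12 to 0.53 with a median of 0.33 in AI embryos. All 15 IVF embryos were below the lowest AI and the lowest IVD embryo, while the AI embryos lay within the IVD range. IVF differed from AI by -0.53 ± 0.09 (SE, limma adjusted p = 1.51e-05), and the adjusted p was 0.093 with the dye-bias cluster as a block.

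MRPL45 binds the ribosome to the inner mitochondrial membrane near the exit tunnel, as known from human and pig structures. It ran from 0.55 to 1.27 with a median of 0.96 in IVF, from 0.44 to 1.18 with a median of 0.90 in IVD, and from 0.07 to 0.93 with a median of 0.54 in AI embryos. IVF was higher than AI by 0.41 ± 0.09 (SE, limma adjusted p = 0.000552), with 8 of 15 IVF embryos above every AI embryo. With the dye-bias cluster as a block its adjusted p was 0.093. The other genes that were lower in IVF than in AI embryos were MRPL33, MRPS5, MRPL52, MRPL50, MRPL2, MRPS12, MRPL35, MRPS6, MRPL17 and MRPL55, with differences of -0.51 to -0.27. MRPL35 passed with an adjusted p of 0.0496 and missed the threshold in 12 of 13 other settings.

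**Figure D2:**
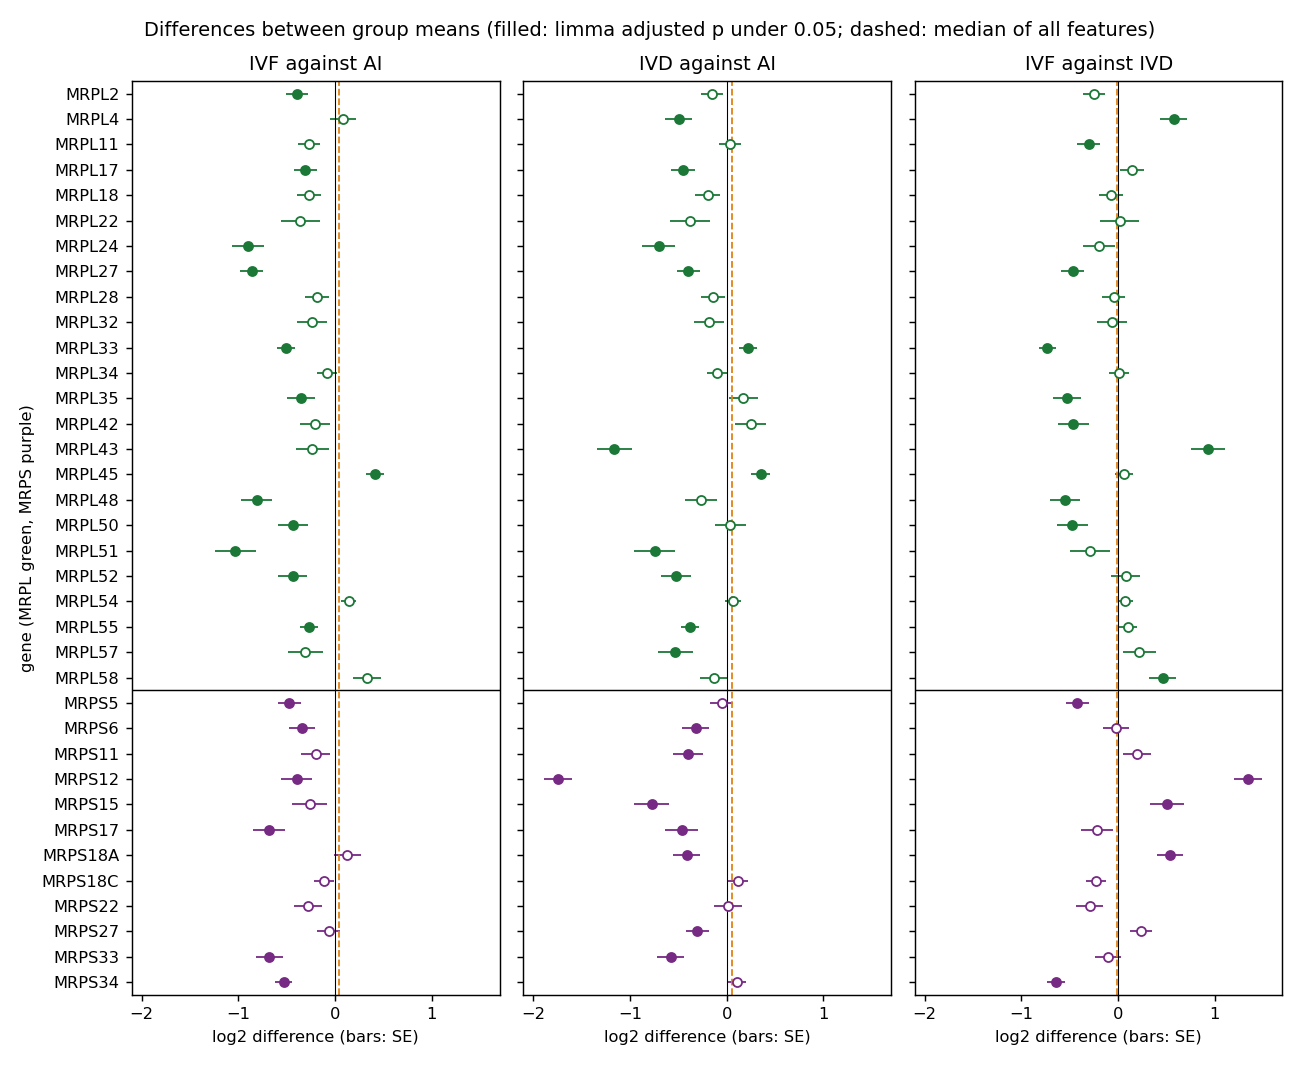
Log2 differences between group means with their SE (x axis) for the 36 genes (y axis), in panels for IVF against AI, IVD against AI and IVF against IVD, MRPL green and MRPS purple, filled where limma's adjusted p was below 0.05 and with a dashed line at the median of all features. Most points lie left of the dashed line in the panels against AI, down to -1.03 for MRPL51 and -1.74 for MRPS12, and on both sides of it in the third panel.

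IVD embryos were lower than AI embryos at 17 of 36 genes, against 21% of all features, and higher at 2, against 25.5% of all features, while 17 genes did not pass. The median difference was -0.28 over the 36 genes and 0.06 over all features. On the ratios as deposited, without centring, the split was 6 higher and 2 lower, and the median of all features was itself at 0.32. Relative to all features, the median of the 36 genes was at -0.342 on the centred ratios and at -0.346 on the deposited ones. Among 24 MRPL genes 9 were lower and 2 higher, with a median of -0.19, and among 12 MRPS genes 8 were lower and 0 higher, with a median of -0.36. Both comparisons with AI use the same AI embryos, so the values of a gene in them are not independent.

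MRPS12 is a relative of bacterial S12, which sits at the decoding site of the small subunit. It ran from -0.35 to 1.03 with a median of 0.28 in 10 IVF embryos, from -1.65 to -0.77 with a median of -1.05 in 14 IVD embryos, and from 0.19 to 1.13 with a median of 0.52 in 10 AI embryos. All IVD embryos lay below every IVF and AI embryo. IVD differed from AI by -1.74 ± 0.15 (SE, limma adjusted p = 1.21e-11), 3.34-fold lower. It was the gene, 1 of 36, whose IVD and AI embryos did not overlap, against 2.84% of all features.

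The MRPS12 value rests on 1 of 4 rows. The neighbouring row of the same clone ran from -0.97 to 1.37 in 8 IVF embryos, from -1.65 to -0.88 in 13 IVD embryos and from -1.28 to 2.16 in 6 AI embryos, so its IVD and AI ranges overlapped. Both rows of the other MRPS12 clone were near 0 in IVD embryos, with medians of 0.09 and 0.01, and had values in 0 AI embryos. The rows of that clone thus gave no comparison of IVD with AI, and the clones differed within IVD embryos.

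MRPL43, a large subunit protein without a bacterial relative, ran from -0.28 to 1.20 with a median of 0.65 in IVF, from -0.90 to 0.52 with a median of -0.47 in 13 IVD embryos, and from -0.05 to 1.85 with a median of 0.73 in AI embryos. IVD embryos were low, with 10 of 13 below the AI range, while IVF and AI embryos overlapped. IVD differed from AI by -1.16 ± 0.18 (SE, limma adjusted p = 1.2e-06). Taken by dye, the difference was -1.10 with the embryo in Cy3 and -1.24 with it in Cy5.

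MRPS15 is a relative of bacterial S15, an rRNA-binding protein of the small subunit. It ran from -1.61 to 0.81 with a median of -0.11 in IVF, from -1.30 to -0.04 with a median of -0.77 in IVD, and from -0.63 to 0.55 with a median of 0.25 in AI embryos. Of 14 IVD embryos 9 were below the AI range, and the IVF embryos spread over the ranges of both other groups. IVD differed from AI by -0.77 ± 0.18 (SE, limma adjusted p = 0.000541), and the adjusted p was 0.0682 on the ratios as deposited.

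Of the genes described above, MRPL51 had a difference of IVD from AI of -0.74 ± 0.21, MRPL24 of -0.70 ± 0.17 and MRPS33 of -0.58 ± 0.14 (SE, limma adjusted p = 0.00361, 0.00066 and 0.000935). None of the 3 passed on the ratios as deposited, where the adjusted p was 0.0816, 0.1 and 0.194. For MRPL51, 7 of 14 IVD embryos were below every AI embryo. MRPL45 was higher in IVD than in AI embryos by 0.35 ± 0.09 (SE, limma adjusted p = 0.0023), with 6 of 14 above the AI range, but missed the threshold with clusters by Ward's method (adjusted p = 0.0803) and with the replicate block (0.234).

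MRPL33, a relative of bacterial L33, was lower in IVF and higher in IVD than in AI embryos, the higher ratio being lost in several settings. It ran from -0.69 to 0.07 with a median of -0.29 in IVF, from 0.01 to 0.75 with a median of 0.46 in IVD, and from -0.13 to 0.49 with a median of 0.28 in AI embryos. IVF embryos were low, and 13 of 15 lay below every IVD embryo. The difference was -0.51 ± 0.09 for IVF against AI and 0.22 ± 0.09 for IVD against AI (SE, limma adjusted p = 1.77e-05 and 0.0398). The call between IVD and AI missed the threshold in 4 of 13 other settings, with adjusted p up to 0.22. The remaining genes that were lower in IVD than in AI embryos were MRPL57, MRPL52, MRPL4, MRPS17, MRPL17, MRPS18A, MRPS11, MRPL27, MRPL55, MRPS6 and MRPS27, with differences of -0.53 to -0.30. None of these remaining genes passed on the ratios as deposited, and MRPS11 and MRPS27 also missed the threshold without IVD embryos 12_1 to 12_4.

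**Figure D3:**
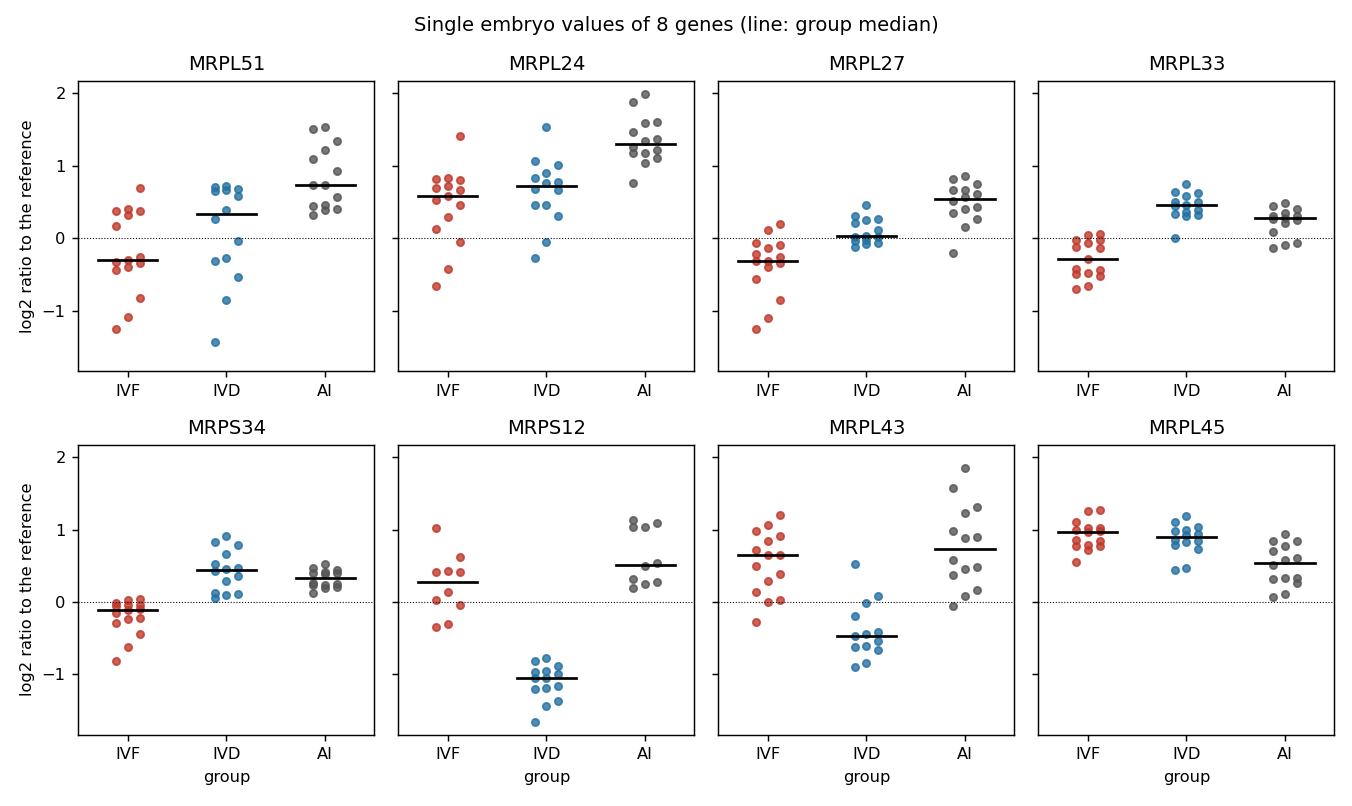
Log2 ratios to the reference RNA (y axis) of each embryo by group (x axis) for MRPL51, MRPL24, MRPL27, MRPL33, MRPS34, MRPS12, MRPL43 and MRPL45, with a line at the group median. MRPS34 in IVF and MRPS12 in IVD do not reach the values of the other groups, and MRPL45 is lowest in AI, at a median of 0.54.

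IVF and IVD embryos were also compared directly. IVF embryos were lower at 9 of 36 genes, against 25.2% of all features, and higher at 6, against 22.3% of all features, and 21 genes did not pass. The median difference was -0.05 over the 36 genes and -0.01 over all features. Without centring the split was 2 higher and 12 lower, with all features at a median of -0.27. The counts were 7 lower and 3 higher of 24 MRPL genes, and 2 lower and 3 higher of 12 MRPS genes. In 2 of 36 genes, MRPS34 and MRPS12, the groups did not overlap, against 3.28% of all features.

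On the lower side, MRPL33 differed between IVF and IVD by -0.73 ± 0.09 and MRPS34 by -0.64 ± 0.09 (SE, limma adjusted p = 5.88e-09 and 1.9e-07), where MRPS34 missed the threshold under both cluster blocks (0.152 and 0.178). MRPL35, a relative of bacterial L35, ran from -0.28 to 1.46 with a median of 0.62 in IVF, from 0.63 to 1.61 with a median of 1.21 in IVD, and from 0.26 to 1.64 with a median of 0.98 in AI embryos. IVF embryos were the most spread, and 8 of 15 lay below every IVD embryo, a difference of -0.53 ± 0.15 (SE, limma adjusted p = 0.00247). MRPL50, without a bacterial relative, ran from 0.26 to 1.62 with a median of 0.91 in IVF, from 0.96 to 1.74 with a median of 1.36 in IVD, and from -0.25 to 1.94 with a median of 1.49 in AI embryos. AI embryo H3 held the lowest value of all groups, and 10 of 15 IVF embryos were below the IVD range. IVF differed from IVD by -0.47 ± 0.16 for MRPL50 (SE, limma adjusted p = 0.0125), by -0.55 ± 0.16 for MRPL48 and by -0.47 ± 0.12 for MRPL27 (adjusted p = 0.00424 and 0.00106). MRPL42, MRPS5 and MRPL11 were also lower, with differences of -0.46 to -0.30.

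On the higher side were MRPS12, at 1.34 ± 0.15, and MRPL43, at 0.93 ± 0.18 (SE, limma adjusted p = 2.79e-09 and 2.95e-05), both low in IVD embryos as given above. MRPL4, a relative of the bacterial exit tunnel protein L4, ran from -0.007 to 1.30 with a median of 0.32 in IVF, from -0.68 to 0.52 with a median of -0.30 in IVD, and from -0.18 to 0.97 with a median of 0.41 in AI embryos. IVF and AI embryos overlapped and most IVD embryos lay lower, with a difference between IVF and IVD of 0.58 ± 0.14 (SE, limma adjusted p = 0.000655).

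MRPS18A carries a small subunit symbol but sits in the large subunit of the mammalian mitochondrial ribosome. It ran from -1.39 to 0.70 with a median of -0.87 in IVF, from -1.60 to -0.84 with a median of -1.30 in IVD, and from -1.21 to -0.21 with a median of -0.91 in AI embryos. The IVD embryos were lowest, and IVF was higher than IVD by 0.54 ± 0.14 (SE, limma adjusted p = 0.00126). MRPL58, a peptidyl-tRNA hydrolase built into the large subunit, ran from -0.78 to 0.83 with a median of -0.15 in IVF, from -0.83 to -0.19 with a median of -0.51 in IVD, and from -1.57 to 0.36 with a median of -0.35 in 13 AI embryos. It was higher in IVF than in IVD by 0.46 ± 0.14 and MRPS15 by 0.51 ± 0.18 (SE, limma adjusted p = 0.00611 and 0.0161).

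Of the 15 genes called between IVF and IVD, 0 passed in every setting tried. With the dye-bias cluster as a block, 2 genes passed, but there the comparison has only 2 IVF embryos in a cluster with the 14 IVD embryos.

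Put together, 8 genes were lower than in AI embryos in both IVF and IVD and did not pass between IVF and IVD, namely MRPL17, MRPL24, MRPL51, MRPL52, MRPL55, MRPS6, MRPS17 and MRPS33. Of these, MRPS6 missed the threshold in 6 of 13 other settings for IVF against AI and in 8 of 13 for IVD against AI, and MRPL17 in 7 of 12 for IVF against AI. MRPL27 and MRPS12 were also lower in both, but with a further difference between IVF and IVD. For MRPS12 the call between IVF and AI had an adjusted p of 0.0445 and was lost in 9 of 12 other settings. MRPL35, MRPL48, MRPL50, MRPS5 and MRPS34 were lower in IVF than in both other groups, and all 5 missed the threshold against each group with the dye-bias cluster as a block, where MRPL48 turned to 0.218 against IVD. MRPL4, MRPL43, MRPS15 and MRPS18A were lower in IVD than in both other groups. Between IVF and IVD, MRPL4 and MRPS18A missed the threshold in 4 of 13 other settings, MRPS15 in 3 of 13 and MRPL43 in 1 of 12. The clusters by Ward's method were among these settings for each gene. Between IVD and AI, MRPL4, MRPS15 and MRPS18A missed it on the ratios as deposited, and MRPL4 and MRPS18A also with the embryo in Cy3 alone.

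A further 8 genes passed in none of the 3 comparisons, namely MRPL18, MRPL22, MRPL28, MRPL32, MRPL34, MRPL54, MRPS18C and MRPS22. Their differences from AI ran from -0.36 to 0.14 in IVF and from -0.38 to 0.12 in IVD. MRPL22, a relative of bacterial L22 in the exit tunnel wall, had the widest spread of all, an SD of 0.80 in IVF embryos. MRPL32, a relative of bacterial L32, ran from -0.29 to 1.86 with a median of 1.17 in IVF, from 0.65 to 1.88 with a median of 1.19 in IVD, and from 0.41 to 1.86 with a median of 1.44 in AI embryos, so its groups overlapped. MRPL34, a relative of bacterial L34, had medians of -0.01 in IVF (-0.91 to 0.27), -0.15 in IVD (-0.47 to 0.28) and -0.01 in AI embryos (-0.40 to 0.46). The tested clone of MRPL28 overlapped too, running from -2.17 to -0.95 around -1.78 in IVF, from -2.36 to -1.08 around -1.71 in IVD and from -1.86 to -1.22 around -1.62 in AI embryos. MRPS22 ran from 0.40 to 2.05 with a median of 1.53 in IVF, from 1.11 to 2.58 with a median of 1.60 in IVD and from 1.01 to 2.40 with a median of 1.67 in AI embryos.

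Rows of 1 gene can be set against each other. In the 32 genes with 2 tested rows of 1 clone, the row differences lay a median of 0.05 and at most 0.22 apart. Signs differed between rows for MRPS22 in IVD against AI (-0.02 to 0.05), and in IVF against IVD for MRPL28 (-0.09 to 0.02), MRPL32 (-0.16 to 0.12), MRPL34 (-0.001 to 0.02) and MRPS6 (-0.22 to 0.11). MRPS6, a relative of bacterial S6, ran from -1.49 to 0.30 with a median of -0.45 in IVF, from -0.97 to -0.11 with a median of -0.41 in IVD and from -0.54 to 0.32 with a median of -0.24 in AI embryos. None of these 5 genes passed in the comparison where its rows disagreed.

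The large and small subunits were compared within embryos, as the median over MRPL genes minus the median over MRPS genes. The MRPL median ran from -0.05 to 0.30 in IVF, from -0.003 to 0.45 in IVD and from 0.26 to 0.59 in AI embryos. The MRPS median ran from -0.26 to 0.31 in IVF, from -0.55 to 0.22 in IVD and from 0.07 to 0.63 in AI embryos. Large minus small was 0.148 ± 0.141 in IVF (SD, n = 15), 0.316 ± 0.184 in IVD (n = 14) and 0.0788 ± 0.155 in AI embryos (n = 14). It was above 0 in 12 of 15 IVF, 14 of 14 IVD and 9 of 14 AI embryos, and the 3 ranges overlapped.

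With MRPS18A counted in the large subunit, where the protein sits, large minus small was 0.0315 ± 0.148 in IVF, 0.189 ± 0.186 in IVD and 7.14e-05 ± 0.167 in AI embryos. Moving this 1 gene lowered the value in every group, and it was then above 0 in 8 of 15 IVF, 11 of 14 IVD and 7 of 14 AI embryos. On the 26 genes measured in every embryo, the values by symbol were 0.287 in IVF, 0.301 in IVD and 0.276 in AI embryos, closer together than over the 36 genes.

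**Figure D4:**
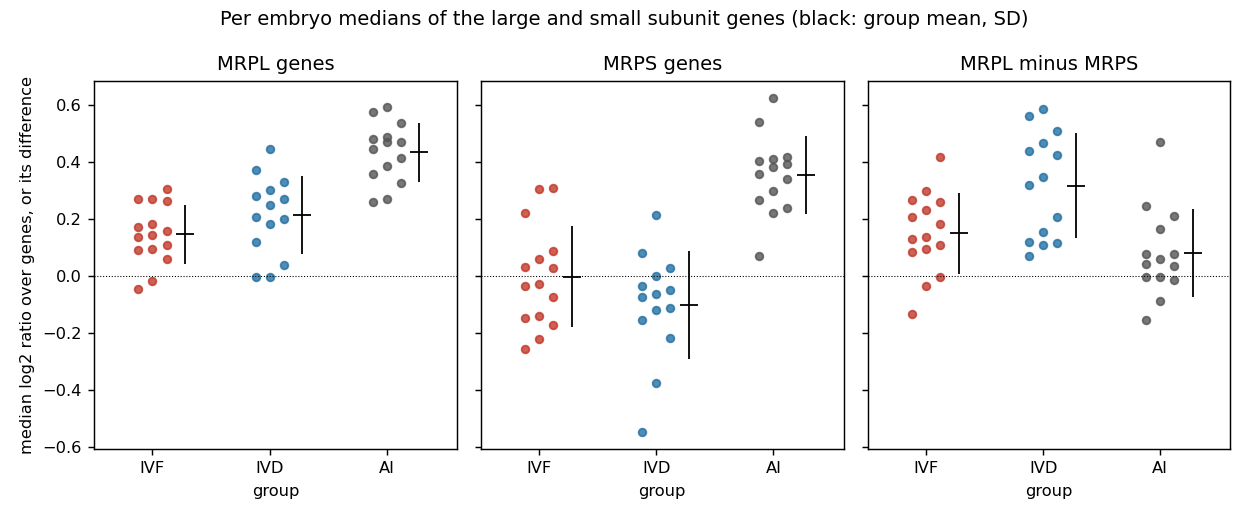
Median log2 ratio over MRPL genes, over MRPS genes and the difference of the 2 (y axis) for each embryo by group (x axis), with the group mean and SD in black. AI embryos are highest in the panels of both subunits, and the difference by symbol lies above 0 in all 14 IVD embryos. With MRPS18A counted in the large subunit, which is not drawn, it was above 0 in 11 of 14.

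The genes were also split by origin. Of 21 genes with a bacterial relative, 11 were lower and 0 higher in IVF than in AI embryos (median -0.31), and 10 were lower and 1 higher in IVD than in AI embryos (median -0.32). Of 15 genes classed as mitochondrial only, 6 were lower and 1 higher in IVF (median -0.28), and 7 were lower and 1 higher in IVD (median -0.26). This class holds MRPS18A, which was lower in IVD, although it shares the S18 symbol with MRPS18C, classed with the bacterial relatives. Over all features, 17.7% were lower and 19.9% higher in IVF, and 21% lower and 25.5% higher in IVD.

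MRPL20, MRPL38 and MRPL41 were not tested, because fewer than 7 embryos of a group had a value on both arrays. MRPL38 and MRPL41, both found in mitochondrial ribosomes alone, had values in 14 of 14 IVD embryos, in at most 2 IVF embryos and in 0 AI embryos. In IVD embryos their rows had medians of -0.17 and -0.02 for MRPL38 and of 0.70 and 0.67 for MRPL41. MRPL20, a relative of the bacterial assembly protein L20, had medians of -1.07 and -0.83 in 10 and 6 IVF embryos, -0.77 and -0.84 in 14 IVD embryos, and -0.54 and -1.20 in 4 and 6 AI embryos. Which spots were left without a value was decided upstream by a rule not given in the sources used here. How a missing value relates to the level is therefore not known.

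Other genes of mitochondrial translation did not follow a single direction. Of 3 measured ribosomal proteins with other symbols, the small subunit protein AURKAIP1 was lower than in AI embryos in IVF (-0.58 ± 0.23) and in IVD (-1.14 ± 0.22), and CHCHD1, also of the small subunit, was lower in IVF (-0.64 ± 0.16), with limma adjusted p of 0.0442, 0.000118 and 0.00195. Between IVF and IVD, CHCHD1 was lower in IVF (-0.574) and AURKAIP1 higher (0.556), with limma adjusted p of 0.00318 and 0.0343. PTCD3 passed in none of the comparisons.

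Of 5 translation factors, 1 was higher and 1 lower in IVF than in AI embryos, and 0 higher and 2 lower in IVD than in AI embryos. Among all features 19.9% were higher and 17.7% lower in IVF, and 25.5% higher and 21% lower in IVD. TUFM, the mitochondrial elongation factor Tu, was lower in IVD than in AI embryos, with a difference of -1.16 ± 0.15, and so was OXA1L, the insertase that receives new chains at the inner membrane, with -1.14 ± 0.13 (SE, limma adjusted p = 2.06e-08 and 8.23e-10). Both were higher in IVF than in IVD embryos, by 0.82 and 0.85. The release factor gene MTRF1L was lower in IVF than in AI embryos (-0.37 ± 0.09), and PDF, the enzyme that removes the formyl group from new chains, was higher (0.38 ± 0.09), with limma adjusted p of 0.000725 and 0.00144. Between IVF and IVD, MTRF1L was lower in IVF (-0.296) and PDF higher (0.402), with limma adjusted p of 0.00422 and 0.000463.

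Of 7 genes for charging mitochondrial tRNAs, all synthetases but the amidotransferase subunit QRSL1, 1 was lower and 1 higher in each comparison with AI. The shares of all features were 17.7% lower and 19.9% higher in IVF, and 21% lower and 25.5% higher in IVD. FARS2, for phenylalanine, was lower in IVF (-0.51 ± 0.19) and in IVD (-0.55 ± 0.19) than in AI embryos. KARS1, for lysine in cytosol and mitochondria, was higher in IVF (0.44 ± 0.12), and HARS2, for histidine, was higher in IVD (0.67 ± 0.22) than in AI embryos. HARS2 was also lower in IVF than in IVD embryos (-0.856). Of 8 ribosome assembly genes, 2 were lower and 0 higher in IVF, and 1 was higher and 0 lower in IVD than in AI embryos. MTERF3, which in mice promotes assembly of the large subunit, was lower in IVF (-0.70 ± 0.21), as was NGRN, an assembly factor known from human cells (-0.43 ± 0.16). MRM2, a methyltransferase of the large ribosomal RNA, was higher in IVD by 0.67 ± 0.18. METTL17 and MPV17L2, both assembly factors, passed only between IVF and IVD, higher in IVF by 0.60 and 0.26. Of the 8 assembly genes 3 were lower and 2 higher in IVF than in IVD embryos, against 25.2% and 22.3% of all features. The lower ones were MRM2 (-0.79), NGRN (-0.665) and MTERF3 (-0.652). SSBP1, which coats single-stranded mitochondrial DNA, was lower in IVF than in AI embryos (-0.83 ± 0.17), and PNPT1, an RNA-processing enzyme of mitochondria, was higher in IVD than in AI embryos by 0.54 ± 0.22. SSBP1 and PNPT1 were also lower in IVF than in IVD embryos (-0.915 and -0.612). The adjusted p from limma of the differences given in this paragraph lay between 1.8e-05 and 0.0479.

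The nuclear genes of the respiratory chain and the ATP synthase had 35 of 42 lower and 1 higher in IVF than in AI embryos (median -0.57). In IVD embryos 24 of them were lower and 1 higher than in AI embryos (median -0.39). The cytosolic ribosomal protein genes had 26 of 44 lower and 1 higher in IVF (median -0.35), and 20 lower and 7 higher in IVD (median -0.21). All features had 17.7% lower and 19.9% higher in IVF, and 21% lower and 25.5% higher in IVD than in AI embryos. No difference between these lists and the mitochondrial ribosomal genes was tested.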

How the data were processed

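Per the labels, single bovine embryos were hybridised on 2-colour cDNA arrays against a common reference RNA, with a dye swap, so that 43 embryos gave 86 arrays. The authors deposited log2 ratios, and the sources used here do not describe image analysis, background correction, normalization or the rule for missing spots. Of the deposited log2 values 20.1% were missing, and array medians ran from -2.22 to 1.06. The number of arrays limits the precision.

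From each array its own median was subtracted, taken over 5558 rows with a value on all arrays. The sign was turned where Cy3 labelled the embryo, and the 2 arrays of an embryo were averaged, so each embryo is 1 replicate. Rows with values on both arrays in at least 7 embryos of every group were kept (10757 rows). Rows sharing a single symbol were averaged, giving 6278 features, 3433 of them named. Symbols came from the platform annotation, and RefSeq assembly ARS-UCD2.0 served for names only. Clones were not mapped, so no coordinates or sequences are given.

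Tests between groups used limma 3.58.1 under R 4.3.3 (1 fit over all embryos and features, two-sided, Benjamini-Hochberg adjustment, threshold 0.05), after a check on simulated data. P-values set a difference between groups against the spread between embryos within groups, which also holds the spread of the measurement. Errors beside differences are standard errors. The member genes and lists, the subunit and origin classes, and the rule for naming genes (every member accounted for, embryo ranges for at most the 6 largest called differences per comparison and direction and for genes whose rows disagree in sign, called genes of related lists) were chosen with earlier results of these data known. Dye-bias clusters were 3, by average linkage on the correlation of averages of unturned arrays. Figures were drawn with matplotlib 3.10.9.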

Additional observations from a re-analysis of the deposited data

How the results depend on the processing

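Of the 52 gene calls, 25 held on the ratios as deposited, 25 with the dye-bias cluster as a block, 27 with clusters by Ward's method, 34 with the replicate block, 35 with Cy3 and 43 with Cy5 alone, 36 of 38 on rows measured in every embryo, and 47 to 50 in the 6 other settings. Against 18 calls between IVF and AI, 10 passed on the ratios as deposited and 4 with the dye-bias cluster as a block, where the MRPL median was -0.16, while over all features 1325 and 515 passed, against 2365. Against 19 calls between IVD and AI, 8 passed as deposited (MRPL median 0.0656, MRPS median -0.0961, all features 0.317), 11 with the embryo in Cy3 alone, 11 of 26 genes measured in every embryo and 10 with the replicate block, while over all features 2819, 3078, 1770 and 2112 passed in these settings, against 2921. Against 15 calls between IVF and IVD, 2 passed with the dye-bias block and 1 with the Ward clusters, a setting added after seeing the data, while over all features 879 and 531 passed, against 2986. Here the MRPL median was -0.301 and the MRPS median -0.335 as deposited (all features -0.266), and the MRPL median was -0.192 with the embryo in Cy3 and 0.0823 with it in Cy5. Large minus small in AI embryos was 0.276 on rows measured in every embryo. Turned in sign between IVF and IVD were MRPL48 (0.218, dye-bias block), MRPL42 (0.072, Ward) and MRPL58 (-0.0191, Ward), and the cause was not tested.

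Passing in every setting that could be fitted were MRPL24, MRPL27, MRPL33 and MRPL51 between IVF and AI, and MRPL43 and MRPS12 between IVD and AI. Relative to all features, the median of the 36 genes stayed between -0.386 and -0.222 for IVF against AI and between -0.417 and -0.265 for IVD against AI over the main and 13 other settings, and between -0.175 and 0.0466 for IVF against IVD. The groups share embryo numbers, and 21 same-numbered pairs correlated at a median of 0.00573 (-0.187 to 0.213), 3 of them above 0.1. The labels do not say whether embryos of the same number share an origin or a day, and this was not tested. The replicate block gave 13 calls between IVF and AI and 12 between IVF and IVD.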

Other observations

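Single embryos differed in how many of the 36 genes lay outside the AI range. In IVF embryos 4 to 15 genes were below the lowest AI embryo, with a median of 10, and 0 to 8 were above the highest, with a median of 1. In IVD embryos 5 to 14 genes were below, with a median of 10, and 0 to 4 were above, with a median of 1.5. Over all features the shares below the AI range were 8.51% to 19.7% in IVF and 10.3% to 14.7% in IVD embryos, and those above it 8.95% to 24% in IVF and 10.5% to 17.6% in IVD embryos. Embryos IVF 7 (of 36 genes measured) and IVF 11 (of 35) had the most genes below the range, 15 each, and IVF 16 the fewest, while IVF 1 had 8 genes above it and also the highest share of all features above it, 24%.

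The genes varied most among IVF embryos. The SD over embryos was largest in IVF for 24 of 36 genes, or 66.7%, against 48.1% of all features. It was largest in IVD for 6 and in AI for 6, or 16.7% each, against 15% and 36.9% of all features. Median SDs were 0.415 in IVF, 0.274 in IVD and 0.344 in AI embryos, against 0.423, 0.326 and 0.399 over all features. Besides MRPL22 in IVF embryos, the widest spreads were those of MRPL51 in IVD (0.68) and MRPS17 and MRPS15 in IVF embryos (0.61 and 0.60). The spread of the measurement itself was not separated from that between embryos.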
